A study of Mus musculus with 9 samples.

Results

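Gm6093 and 2600014E21Rik are a pair of long non-coding RNA (lncRNA) genes, 2 of the 23747 genes in the deposited tables and 2 of the 5300 that the GENCODE annotation places among lncRNAs. They were chosen because earlier results on these data had shown both to be higher in heart fibroblasts after ischemia-reperfusion, so their levels in I/R against sham mice are given as a description with no test. Nuclei were sequenced one by one (sNuc-seq), with a barcode for each nucleus and a unique molecular identifier (UMI) for each captured transcript. They came from heart tissue below the ligation site of C57BL/6 mice, supplied at 8 weeks of age and acclimatized for a week. All groups were gavaged for at least 7 days before use. The 3 sham mice received vehicle and an operation without ligation. The 3 I/R mice received vehicle, then ligation of the left anterior descending coronary artery (LAD) for 30 min and reperfusion for 24 h. The 3 SBP mice received Shexiang Baoxin Pill, a traditional Chinese medicine labelled MUSKARDIA, before the same ischemia and reperfusion. I/R and SBP mice therefore shared the injury and differed in the agent, and no uninjured mice received SBP. Each mouse gave 1 library.

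Long non-coding RNAs are transcribed and often spliced like messenger RNAs but are not known to encode a protein. Many stay in the nucleus, where some act on chromatin or on the transcription of nearby genes, and nuclear RNA is what sNuc-seq samples. Cardiac fibroblasts maintain the collagen network of the heart. After injury they proliferate, migrate into the damaged area and switch to a matrix-producing state marked by tenascin C (Tnc) and periostin (Postn). No function of either lncRNA was given in the sources used here.

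Gm6093 (ENSMUSG00000112963.1) lies on the minus strand of chromosome 13 at chr13:33562486-33569317 (GRCm38) and spans 6832 bases. Its 2 annotated transcripts have 3 exons each and are 1623 and 2163 bases long. 2600014E21Rik (ENSMUSG00000100303.3) lies on the plus strand of chromosome 2 at chr2:75138843-75317820 and spans 178978 bases, with 15 annotated transcripts of 409 to 4805 bases. Both are annotated as intergenic lncRNAs. Gm6093 overlaps Gm25043 and Gm47916 on the opposite strand, neither of which is in the tables. 2600014E21Rik overlaps A330043C09Rik on the opposite strand, whose fibroblast level was 0.37 to 1.53 CPM (the UMI number scaled to a common library size) in sham and 1.71 to 2.34 CPM in SBP mice. In I/R mice 1, 2 and 3 it was 1.99, 0.28 and 7.61 CPM, high in 1 mouse alone. 2600014E21Rik also overlaps the processed pseudogenes Rps6-ps4 and Gm18494 on the opposite strand and Gm13653 on its own strand. None of these pseudogenes is in the tables. In a search of annotated transcripts, no other gene in the tables shared a same-strand stretch of at least 90 bases at 95% identity with either lncRNA. Introns were not searched.

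The promoters are shown because they are the part of each gene where the 2 loci can be compared letter by letter. Each sequence runs 5′ to 3′ from 250 bases before to 50 bases after a RefSeq start (RefSeq, GRCm38.p6). Capitals mark the motifs found in a search on both strands for AP-1 (TGANTCA), CRE (TGACGTCA), the TATA box (TATAAA), TEAD (GGAATG), RUNX (TGTGGT), the E box (CACGTG), the NF-kB core and the antioxidant response element core (TGACNNNGC).
Gm6093, chr13:33569268-33569567, minus strand: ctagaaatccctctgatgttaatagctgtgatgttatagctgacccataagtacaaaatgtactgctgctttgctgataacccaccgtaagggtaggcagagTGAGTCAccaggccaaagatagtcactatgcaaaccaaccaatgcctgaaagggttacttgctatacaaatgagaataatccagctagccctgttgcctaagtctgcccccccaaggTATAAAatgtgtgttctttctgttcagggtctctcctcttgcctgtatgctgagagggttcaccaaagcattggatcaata
2600014E21Rik, chr2:75137405-75137704, plus strand: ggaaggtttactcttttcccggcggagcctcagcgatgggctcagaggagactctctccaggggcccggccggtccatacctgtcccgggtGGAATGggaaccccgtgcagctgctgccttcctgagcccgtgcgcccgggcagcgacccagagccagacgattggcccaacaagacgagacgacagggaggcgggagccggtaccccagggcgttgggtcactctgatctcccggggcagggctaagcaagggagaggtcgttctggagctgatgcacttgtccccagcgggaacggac

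The Gm6093 promoter held the AP-1 letters TGAGTCA at positions -148 to -142 from the start and the letters TATAAA at -31 to -26. Among 32851 promoters of the same length, 7.81% held the AP-1 letters and 13.6% the TATAAA letters. It contained 1 CpG dinucleotide and 44.7% G or C bases, against medians of 7 and 52.7% over all promoters. The RefSeq start behind the 2600014E21Rik promoter shown lies upstream of the GENCODE gene given above, so that this window ends before the first GENCODE transcript begins. It held 21 CpG and 66.0% G or C, and the TEAD letters at -159 to -154, found in 14.7% of promoters. RefSeq places a pair of further, overlapping 2600014E21Rik promoters at chr2:75275041-75275340 and chr2:75275184-75275483, inside the gene, which held no CpG and share a single copy of the TEAD letters. None of the 8 motifs was found in promoters of both genes. The motif list was written after the letters of the Gm6093 promoter had been seen, and a match in letters is not evidence of a bound factor.

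The 9 libraries held 49171 nuclei, with 4576 to 6418 nuclei, 10329520 to 18205985 UMIs and a median of 1540 to 2031 UMIs per nucleus in a library, and 290 barcodes occurred in more than 1 library. Clustering and marker genes gave 13867 fibroblast nuclei, of which 4321 came from sham, 4536 from I/R and 5010 from SBP mice. The fibroblast nuclei carried the defining genes of the type, with a summed level of 7 markers that ranged from 3818 to 5609, 5557 to 7226 and 4867 to 5872 CPM for sham, I/R and SBP mice. Transcripts of other cell types were also present in these nuclei. Among the smaller sums, 5 mesothelial markers averaged 2.05, 14.8 and 8.83 CPM in sham, I/R and SBP mice. Those of 5 B cell markers averaged 26.6, 8.78 and 9.68 CPM. For the 3 groups in that order, the summed level of 6 cardiomyocyte markers ranged from 3986 to 5040, 1464 to 2228 and 1459 to 2041 CPM, that of 9 myeloid markers from 106 to 145, 223 to 384 and 152 to 215 CPM, and that of 7 smooth muscle and pericyte markers from 334 to 410, 213 to 276 and 240 to 285 CPM. Cardiomyocyte and myeloid nuclei of injured mice themselves held at most 4.33 CPM of Gm6093 and 8.82 CPM of 2600014E21Rik. Smooth muscle and pericyte nuclei held no UMI of Gm6093. They held 35.2, 198.2 and 141.9 CPM of 2600014E21Rik in I/R mice and 13.3, 117.1 and 449.6 CPM in SBP mice, on 3 to 29 nuclei per mouse. The part of such nuclei in the fibroblast values was not tested.

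Gm6093 was not detected in sham fibroblasts and was present in those of every injured mouse. No UMI was counted in 1450, 1521 and 1350 fibroblast nuclei of the 3 sham mice, and 0 of 4321 nuclei allows a share of up to 0.0694% of nuclei with a UMI, counting error only. Its level, in CPM scaled between libraries by the trimmed mean of M values method (TMM), was 89.97, 119.6 and 70.9 in I/R mice 1, 2 and 3, a mean of 93.5 ± 24.6 (SD, n = 3). In SBP mice 1, 2 and 3 it was 65.9, 48.6 and 25.7 CPM, a mean of 46.8 ± 20.2. The gene was chosen for its gap between I/R and sham mice, so that gap is a description. All 3 SBP mice were below all 3 I/R mice, which held for 3.68% of all genes tested. Against a floor of 3 UMIs over the sham group, the I/R level was at least 231-fold higher and the SBP level at least 116-fold higher. These bounds fell to 147 and 74.0 without sham mouse 3 and to 149.6 and 75.4 without sham mouse 2. There the same 3 UMIs stand over fewer sham UMIs. With cell types from marker scores the bounds were 131 and 72.8.

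2600014E21Rik was already present at a low level in sham fibroblasts. It was measured at 9.15, 9.92 and 12.1 CPM in the 3 sham mice, 10.4 ± 1.53 on average. The I/R mice had 188.6, 241.6 and 264.3 CPM (231.5 ± 38.8) and the SBP mice 191.8, 189.4 and 164.1 CPM (181.7 ± 15.3). The ratio of group means was 22.3 for I/R over sham and 17.5 for SBP over sham. The spread within sham was small beside this gap, and the I/R and SBP ranges overlapped.

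**Figure D1:**
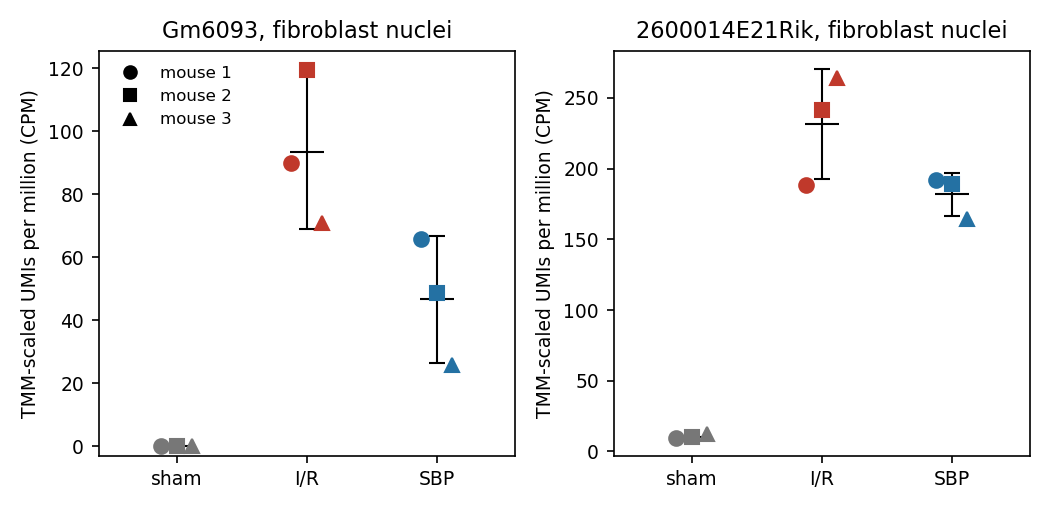
TMM-scaled level (CPM) of Gm6093 (left) and 2600014E21Rik (right) in fibroblast nuclei summed per mouse, with 1 point per mouse (the shape gives the mouse number) and bars for the mean ± SD of 3 mice. Gm6093 sits at 0 in all 3 sham mice, at 70.9 to 119.6 in I/R mice and at 25.7 to 65.9 in SBP mice, while 2600014E21Rik rises from 9.15 to 12.1 in sham mice to at least 164.1 in every injured mouse.

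The comparison of SBP with I/R mice asks whether the pre-treatment changed the levels reached after injury, and its SBP mice did not serve to choose the genes. The I/R mice did, and a choice for high I/R values favours a lower value in SBP mice. Gm6093 was lower in SBP fibroblasts by a log2 difference of -1.05 (SE 0.31, 95% confidence interval -1.73 to -0.37), but the adjusted p was 0.999 (limma, Benjamini-Hochberg over 13015 genes) from an unadjusted p of 0.00555. The two-sided exact permutation test gave p = 0.1, the smallest that 3 mice against 3 can give. For 3.68% of all genes tested every SBP mouse was likewise below every I/R mouse. 2600014E21Rik differed by a log2 value of -0.34 (SE 0.17, interval -0.70 to 0.03, adjusted p = 0.999, limma), with an exact permutation p of 0.3. Without the TMM factors its SBP mice (166 to 190 CPM) all fell below the I/R mice (197 to 267 CPM) and the exact permutation p was 0.1. No gene was called in this comparison (0 of 13015, 0%), with 454 genes at an unadjusted p under 0.05 in limma. A difference between SBP and I/R mice was thus not shown for either gene. The intervals are not adjusted for the 13015 genes tested. That of Gm6093 lay below 0, so a lower level of Gm6093 in SBP mice remains possible. In such sums over nuclei, fewer nuclei of one state and less RNA per nucleus cannot be told apart.

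The values of SBP against sham mice are a description too, since the sham mice are those that served to choose the genes. The log2 difference of 2600014E21Rik was 4.01. Gm6093 passed the filter on low values through the injured mice alone, so it could not have been tested without differing from sham. Of all genes, 3.77% were called higher in this comparison.

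Gm6093 was low in the other 3 large cell types (cardiomyocytes, endothelial and myeloid cells). In nuclei of each type summed per mouse and expressed as CPM without TMM factors, Gm6093 had 0 UMIs in every sham mouse and type. In I/R mice it reached 1.04, 2.02 and 0.99 CPM in cardiomyocytes, 0.92, 2.10 and 1.07 in endothelial cells and 4.32, 4.33 and 0.89 in myeloid cells. The same mice had 93.9, 122.8 and 71.5 CPM in fibroblasts on this scale. In SBP mice the largest of the 9 values in these 3 types was 3.92 CPM, in the endothelial cells of mouse 1. The levels in cardiomyocytes, endothelial and myeloid cells overlapped and were not ordered beyond their spread.

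Among the 4 large cell types 2600014E21Rik was likewise highest in fibroblasts, at 237.1 ± 36.05 CPM in I/R mice on the scale without TMM factors, followed by endothelial cells at 12.2 ± 3.87, myeloid cells at 6.59 ± 1.61 and cardiomyocytes at 2.94 ± 0.405 CPM (SD, n = 3). The endothelial range in I/R mice, 8.41 to 16.1 CPM, touched the upper myeloid value of 8.42, while the cardiomyocyte range of 2.48 to 3.23 lay below both. In sham mice the levels were 3.45 ± 2.28 in endothelial cells, 1.77 ± 1.59 in myeloid cells and 0.554 ± 0.489 in cardiomyocytes. With TMM scaling the log2 difference of SBP from I/R mice was -0.67 in cardiomyocytes (SE 0.31, adjusted p = 1.00, limma, exact permutation p = 0.1) and -0.52 in endothelial cells (SE 0.45, adjusted p = 0.994, exact permutation p = 0.3). In myeloid cells the gene did not pass the filter on low values.

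Read as shares of nuclei with at least 1 UMI, the fibroblast values lay above those of the other 3 large cell types. Free RNA in the droplets can give a UMI in nuclei that do not express a gene, and T cells serve as a type that does not produce the collagen matrix. Among I/R mice 5.23% of fibroblast nuclei held Gm6093 on average and 23.7% held 2600014E21Rik. T cells held a UMI of Gm6093 in 2 of 299 nuclei and of 2600014E21Rik in 6 of 299 nuclei of I/R mice, at a median of 908 to 1271 UMIs per nucleus against 1833 to 2132 in fibroblasts. The mean shares for 2600014E21Rik in I/R cardiomyocytes (1.71%), endothelial cells (1.64%) and myeloid cells (1.34%) stood beside a T cell mean of 2.61% that rested largely on 3 of 47 nuclei of I/R mouse 2, while in SBP mice 1 of 203 T cell nuclei held the gene, against a mean of 1.26% in endothelial and 1.23% in myeloid nuclei. The part of free RNA in the values outside fibroblasts was not tested. After every nucleus was thinned to 1000 UMIs, which left out 382 I/R and 537 SBP fibroblast nuclei, the fibroblast shares were 3.05% in I/R and 1.69% in SBP mice for Gm6093, and 13.7% and 9.39% for 2600014E21Rik. Sham fibroblasts then held 2600014E21Rik in 0.822% of nuclei.

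**Figure D2:**
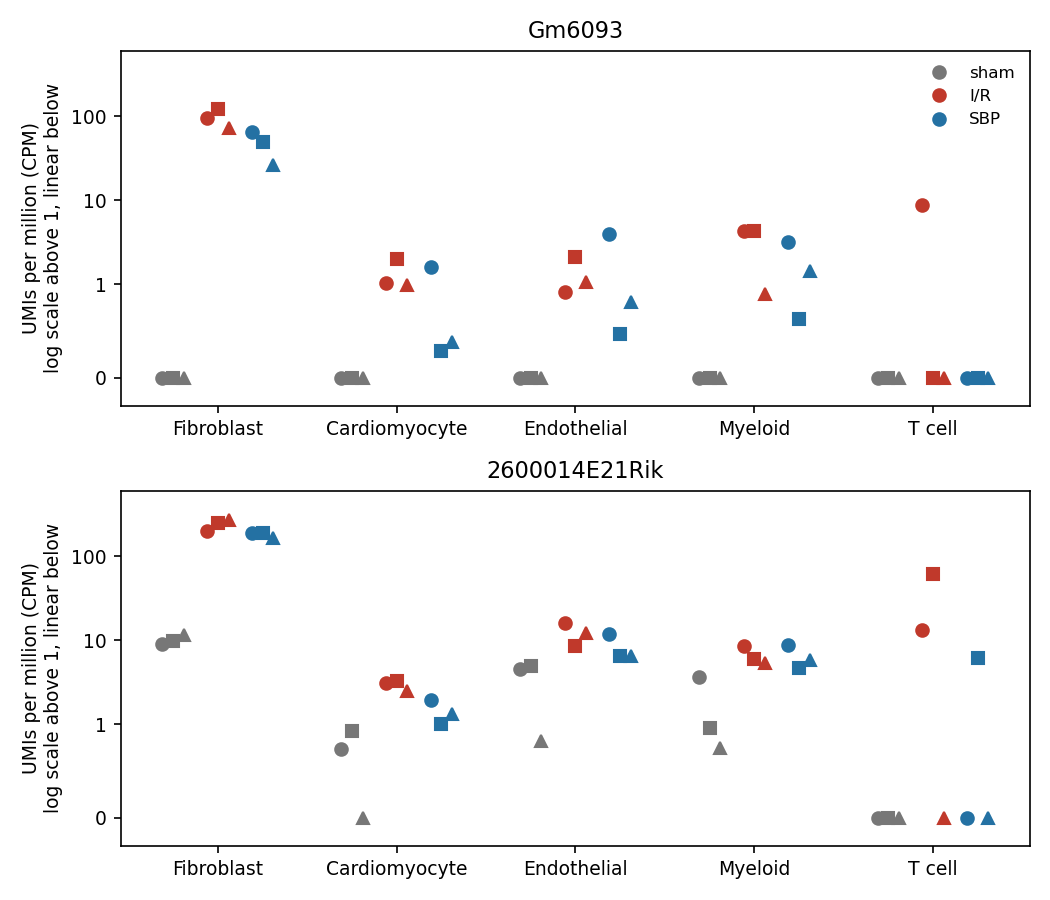
Level of each lncRNA (CPM of the summed nuclei, without TMM factors, on an axis that is linear below 1 and logarithmic above) in 5 cell types, with 1 point per mouse and colours for sham, I/R and SBP. Fibroblasts of injured mice stand apart at 26.0 to 122.8 CPM for Gm6093 and 166 to 267 CPM for 2600014E21Rik, and the T cell points rest on few nuclei.

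Within fibroblasts the genes parted. The nuclei were clustered again without either lncRNA, and states were named from markers. The activated cluster of 1893 nuclei had all 7 activation markers (Tnc, Postn, Timp1, Runx1, Lox, Cthrc1 and Fn1). It was led by Kif26b, Tnc, Gm6093, Adam12, Diaph3, Hmga2, Cthrc1, Knl1, Ltbp2 and Top2a, so genes of cell division (Knl1, Top2a) stood beside matrix genes. It held 454, 448 and 169 nuclei of I/R mice 1, 2 and 3, 304, 328 and 181 nuclei of SBP mice, and 9 of all sham nuclei, and was deeper, with a median of 2270 to 4516 UMIs per nucleus in the injured mice against 1893 to 3030 in the adventitial-like cluster, which overlaps it, and 1559 to 1930 in the remaining clusters, both described next. An adventitial-like cluster of 1951 nuclei was named from Pi16, Dpp4 and Sema3c, which stood among its 10 leading genes behind Efemp1 and Cmah. The 5 remaining clusters were not named and were pooled as other fibroblasts. Of these, 4 came largely from 1 group (for example 94.5% of the Kcnip1-led cluster from sham and 80.1% of the Apod-led cluster from I/R mice).

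Gm6093 was found almost entirely in activated nuclei. They held 98.9%, 96.4% and 98.7% of its fibroblast UMIs in I/R mice 1, 2 and 3 and 97.0%, 100% and 94.9% in SBP mice, while they held 20.2% to 48.2% of all fibroblast UMIs. Its level in activated nuclei, without TMM factors, was 192.8, 282.1 and 325.6 CPM in I/R mice (266.8 ± 67.7) and 232.7, 120.3 and 122.3 CPM in SBP mice (158.4 ± 64.3). These ranges overlapped, and the log2 difference of SBP from I/R mice was -0.79 (SE 0.38, exact permutation p = 0.2). No adventitial-like value exceeded 6.78 CPM and no value of the other fibroblasts exceeded 7.84 CPM.

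2600014E21Rik was spread over activated, adventitial-like and other nuclei of injured fibroblasts. In activated nuclei it measured 283.3, 281.4 and 310.1 CPM in I/R mice and 333.4, 296.7 and 355.2 CPM in SBP mice (log2 difference 0.17, SE 0.09, exact permutation p = 0.2). Adventitial-like nuclei had 55.1, 106.7 and 157.5 CPM in I/R and 59.9, 157.4 and 166.9 CPM in SBP mice, against 3.98 to 14.97 CPM in sham (SBP against I/R, exact permutation p = 0.6). The other fibroblasts had 123.4, 272.9 and 258.2 CPM in I/R mice, 164.9, 99.3 and 103.7 CPM in SBP mice and 10.4 to 11.03 CPM in sham (log2 difference -0.78, SE 0.43, exact permutation p = 0.2). The gene was chosen for its I/R level in fibroblasts, so its gap to sham within these states is a description. Activated nuclei held between 25.2% and 69.3% of the fibroblast UMIs of 2600014E21Rik. In each injured mouse this was more than their share of all fibroblast UMIs, which ranged from 20.2% to 48.2%. The clusters within the other fibroblasts differed between groups and also between I/R mice, so levels there were compared across different clusters. In I/R mouse 1, 792 of the 883 such nuclei were in the Npas2-led cluster, at 133.6 CPM. Most of those of I/R mice 2 and 3 were in the Apod-led cluster, at 283.7 and 265.3 CPM. I/R mouse 1 had the lowest I/R value among the other fibroblasts. In the Dkk3-led cluster I/R mouse 1 had 28.4 CPM on 3 UMIs, and SBP mice had 129.9, 38.6 and 61.5 CPM. Sham mice had 11.3 to 26.3 CPM there, and I/R mice 2 and 3 had fewer than 20 nuclei.

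**Figure D3:**
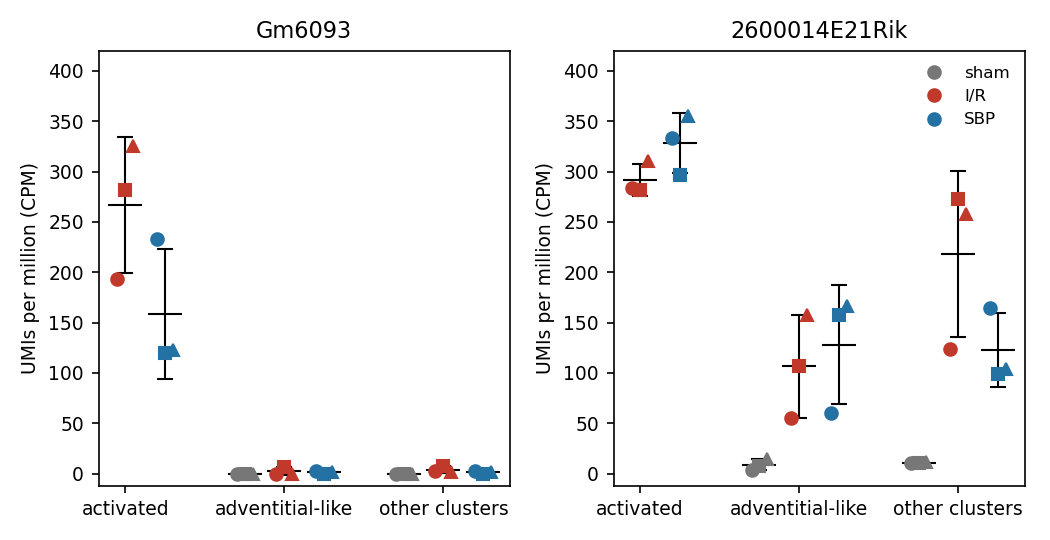
Level (CPM of the summed nuclei, without TMM factors) of Gm6093 and 2600014E21Rik in activated nuclei, adventitial-like nuclei and the other fibroblast clusters, with 1 point per mouse with at least 20 nuclei and bars for the mean ± SD. Gm6093 lies between 120.3 and 325.6 in activated nuclei and at or below 7.84 elsewhere. 2600014E21Rik lies at 55.1 or above in activated, adventitial-like and pooled other nuclei of every injured mouse.

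A simpler split, by whether a nucleus held a UMI of Tnc, also separated the levels of Gm6093, without clusters. Gm6093 averaged 336 ± 78.7 CPM in Tnc-positive and 32.7 ± 8.56 CPM in Tnc-negative fibroblast nuclei of I/R mice, and 155 ± 75.0 and 20.1 ± 10.2 CPM in SBP mice (SD, n = 3). 2600014E21Rik averaged 226 ± 17.6 and 239 ± 40.9 CPM in I/R mice, and 193 ± 33.9 and 180 ± 22.9 CPM in SBP mice. The Gm6093 level was thus separated by Tnc in both groups, and the 2600014E21Rik ranges overlapped in both. For 2600014E21Rik the splits differed. Its level was higher in activated than in adventitial-like and other nuclei of every injured mouse. Tnc-positive nuclei were deeper, at a median of 2167 to 4233 UMIs in SBP mice against 1638 to 1974 in Tnc-negative nuclei.

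Gm6093 UMIs were concentrated in few nuclei, as were those of Tnc, while those of Adam12 and Postn were less so. In I/R mice 1, 2 and 3 the 362, 422 and 298 fibroblast UMIs lay in 104, 84 and 42 nuclei, and in SBP mice the 231, 199 and 99 UMIs lay in 53, 51 and 35 nuclei. The 10 richest nuclei held 37.8%, 51.7% and 69.5% of the UMIs in I/R and 57.1%, 46.2% and 71.7% in SBP mice. For Tnc these shares were 36.7%, 40.7% and 60.3% in I/R and 40.3%, 41.9% and 63.1% in SBP mice. For Adam12 they were 16.6%, 18.9% and 25.7% in I/R and 19.8%, 18.7% and 32.8% in SBP mice. For Postn they were 18.2%, 27.0% and 43.8% in I/R and 25.8%, 23.2% and 47.6% in SBP mice. The richest nucleus of each mouse held 26, 49 and 60 UMIs in I/R and 27, 14 and 14 UMIs in SBP mice. Without that nucleus the levels, without TMM factors, were 87.2, 108.5 and 57.1 CPM in I/R and 57.3, 45.4 and 22.3 CPM in SBP mice, so that SBP mouse 1 no longer lay below I/R mouse 3. For 2600014E21Rik the 10 richest nuclei of an injured mouse held 12.6% to 24.3% of the UMIs, and the gene was found in 221 to 437 nuclei per mouse. A share held by 10 nuclei also depends on how many nuclei hold the gene.

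**Figure D4:**
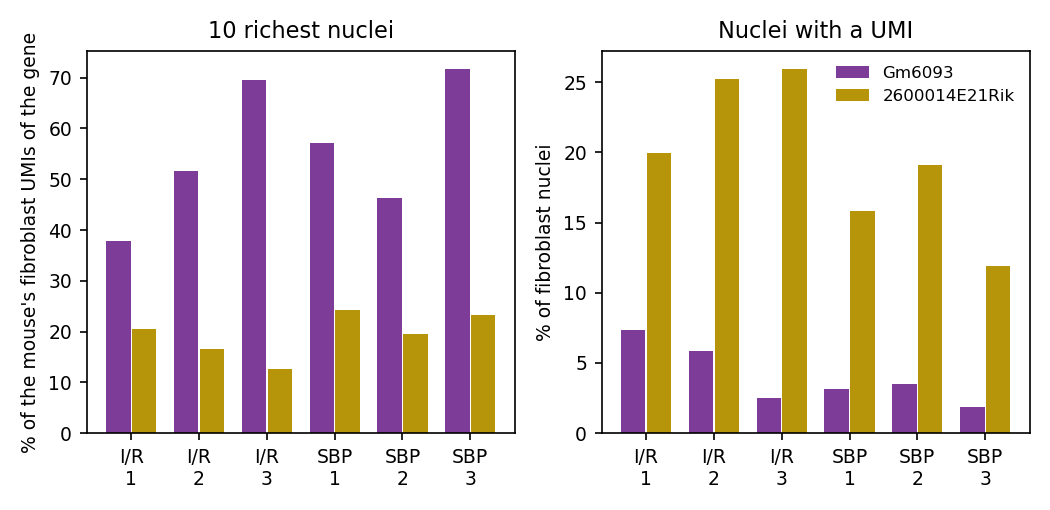
For each injured mouse, the share of a gene's fibroblast UMIs held by its 10 richest nuclei (left, percent) and the share of fibroblast nuclei with at least 1 UMI (right, percent), for the genes named in the legend. The 10 richest nuclei hold 37.8% to 71.7% of Gm6093 UMIs and 12.6% to 24.3% of 2600014E21Rik UMIs.

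The pair showed no strong tendency to occur in the same nuclei. Among activated nuclei with Gm6093, 34.0%, 38.03% and 43.6% also held 2600014E21Rik in I/R mice and 25.0%, 35.3% and 40.0% in SBP mice. Among activated nuclei without Gm6093 the shares were 40.4%, 31.8% and 42.3% in I/R and 28.9%, 39.7% and 36.4% in SBP mice. The share was higher beside Gm6093 in 3 of the 6 mice, although nuclei with Gm6093 were deeper in every mouse (for example a median of 6124 against 4277 UMIs in I/R mouse 3). With every nucleus thinned to 1000 UMIs the shares with and without Gm6093 ranged from 6.12% to 33.3% and from 14.3% to 18.9%. The thinned share beside Gm6093 was lower in I/R mice 1 and 3 and SBP mouse 2 (6.12% against 18.4%, 9.09% against 18.9% and 11.1% against 17.6%). It was higher in I/R mouse 2 and SBP mice 1 and 3 (20% against 14.3%, 20.7% against 18.9% and 33.3% against 18.5%). The shares beside Gm6093 rest on 49, 40 and 22 nuclei of I/R mice and 29, 27 and 12 of SBP mice, so these directions are not read further. The Pearson correlation of their values across all fibroblast nuclei of a mouse averaged 0.03 over 6 mice, which in counts this sparse is no finding.

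Gm6093 varied across fibroblast nuclei most with the genes given here, 5 of which stayed among the 10 highest when only activated nuclei were used. The mean within-mouse Pearson correlation over the 6 injured mice, among 6772 genes, was highest for Adam12 (0.32), a membrane metalloprotease. It was followed by Diaph3, a formin that builds actin filaments (0.28), Kif26b, an atypical kinesin (0.28), Tnc (0.27), the mitotic DNA topoisomerase Top2a (0.26), fibronectin Fn1, Ltbp2, collagen Col1a1 and the chondroitin sulfotransferase Chst11 (0.25 each), and the collagen-triple-helix protein Cthrc1 (0.25). All of these were positive in 6 of 6 mice. The lowest were the transporter Abca8a (-0.25), the nuclear receptor Rora (-0.24), the protease Htra3 (-0.20), the lncRNA Malat1 (-0.19) and the transcription factor Zbtb16 (-0.19). All nuclei of a mouse share its library, and the correlation of Gm6093 with the logarithm of a nucleus's total UMIs was 0.18.

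For 2600014E21Rik the correlations were taken over all 9 mice and 6486 genes, which include the sham mice with few UMIs of the gene, so that their size is not compared with that for Gm6093. The interleukin-1 receptor Il1r1 came first (0.13), followed by the zinc-sensing receptor Gpr39, the retinoic acid-synthesizing enzyme Aldh1a2, Col3a1, the oxysterol hydroxylase Cyp7b1, Sh3rf3, Adam12, Sned1, Bmper and Mid1, the last at 0.10. The lowest was the proprotein convertase Pcsk6 at -0.07, followed by Gsn, Pla1a, the cardiomyocyte transcript Mb and Scara5. The correlation with the logarithm of total UMIs was 0.14, above that of every gene. Adam12 was the 1 gene among the 10 highest of both lncRNAs, but within activated nuclei alone its correlation with 2600014E21Rik was 0.02 (rank 3355 of 6486), and 2 of the 10 genes stayed among the 10 highest there. In those nuclei Il1r1 stood at 0.27 and Bmper at 0.27 with 2600014E21Rik, while the highest value for Gm6093, that of Diaph3, was 0.18.

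**Figure D5:**
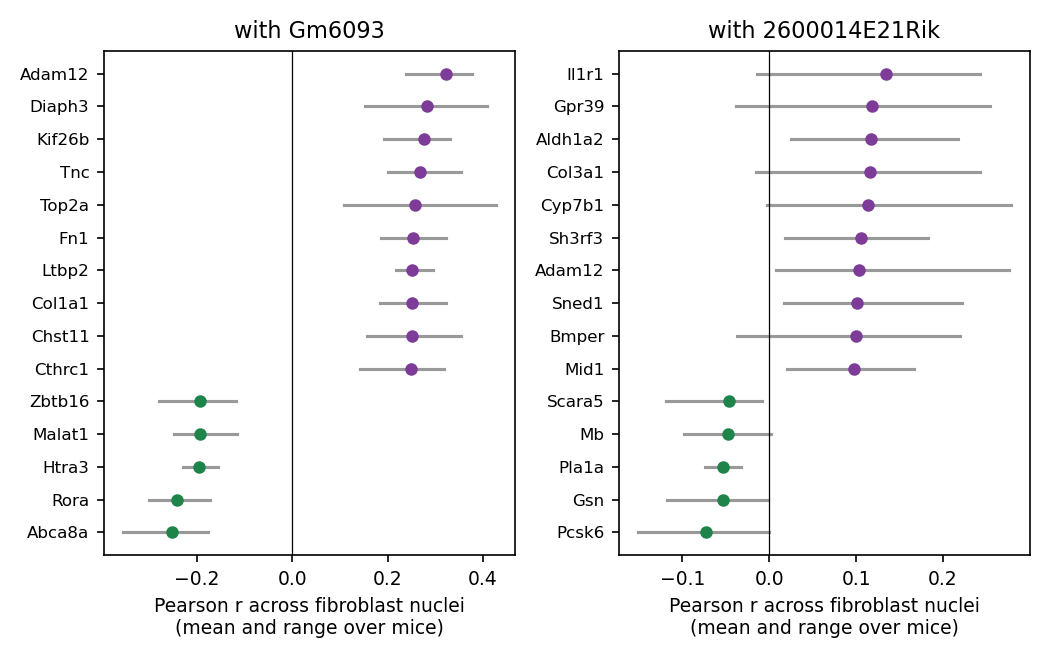
Mean within-mouse Pearson correlation (points) and its range over mice (bars) across fibroblast nuclei for the 10 genes most and the 5 genes least alike to each lncRNA. Gm6093 reaches 0.32 with Adam12 and -0.25 with Abca8a, and the values for 2600014E21Rik lie between -0.07 and 0.13.

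All 10 genes most alike to Gm6093 were called higher in I/R than in sham fibroblasts, where 6.69% of all 13015 genes were. Cthrc1 passed the filter on low values with no sham mouse at its level. These 10 were picked in injured mice by likeness to a gene chosen for its I/R level. The calls and p-values of these genes against sham are therefore a description and no support. In SBP against I/R mice 9 of the 10 had lower values and 1, Tnc, a higher one, and none was called. Over all genes the median log2 difference was 0.007. The 10 genes vary together across nuclei, so they are not 10 separate observations. Adam12 averaged 24.5, 684 and 619 CPM for sham, I/R and SBP mice and was called higher in I/R (log2 4.78, SE 0.25, adjusted p = 2.23e-06, limma). Tnc measured 553, 415 and 333 CPM in I/R mice 1, 2 and 3 and 350, 640 and 576 CPM in SBP mice, with 1.83 to 5.34 CPM in sham. Its I/R and SBP ranges overlapped. As a description too, 6 of the 10 genes most alike to 2600014E21Rik were called higher in I/R mice and 4 were not called. Il1r1 was among the former (298, 860 and 706 CPM in sham, I/R and SBP, log2 1.52, SE 0.16, adjusted p = 0.000215), whereas Bmper (449, 497 and 535 CPM, adjusted p = 0.841) and Mid1 (831, 710 and 718 CPM, adjusted p = 0.421) did not pass the test.

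Across the 36 values of 9 mice and 4 cell types (fibroblasts, cardiomyocytes, endothelial and myeloid cells), the pattern most like that of Gm6093 was that of Steap1 (Pearson r = 0.95). It measured 0, 16.2 and 8.34 CPM in sham, I/R and SBP fibroblasts. Gm44507, Inava, the potassium channel subunit Kcne4 and the collagen Col12a1 followed (0.94 to 0.92). The pattern most like that of 2600014E21Rik was that of the matrix protein Ltbp2 (r = 0.95; 10.8, 129 and 112 CPM), then Dok6, Col1a2, the lncRNA Gm36107 and Col3a1 (0.95 to 0.93). The lncRNAs reached 0.91 with each other. All of these genes had higher fibroblast means in I/R and in SBP than in sham mice. How far the correlations rest on gaps between groups and cell types was not tested, and the 4 values of a mouse share its library.

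Of 8 genes tested near the lncRNAs, 1 was called, beside 6.69% of all genes called higher and 4.93% called lower, a share too near the background to be read as a result. Within 500 kb of Gm6093, 34 genes are annotated, 7 are in the tables and 5 were tested. None was called in I/R against sham, and none had an unadjusted p under 0.05 in limma. The closest of them, the serine protease inhibitor Serpinb6a, measured 106, 120 and 122 CPM in sham, I/R and SBP fibroblasts. Serpinb6c and Serpinb1b, of the same inhibitor family, stayed below 1 CPM in every group mean and were not tested. Around 2600014E21Rik, 41 genes are annotated, 13 are in the tables and 3 were tested. The splicing factor Hnrnpa3 was called higher in I/R mice (140, 209 and 188 CPM, log2 0.59, SE 0.18, adjusted p = 0.0488). The mitochondrial import protein Mtx2 (63.2, 60.8 and 68.5 CPM, adjusted p = 0.859) and Nfe2l2, the transcription factor of the oxidative stress response (146, 123 and 109 CPM, adjusted p = 0.486), did not pass the test. Gm13652, the nearest upstream gene in the tables and on the other strand, stayed below 1 CPM in every group mean.

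Of 711 further lncRNAs tested in fibroblasts, 32 (4.50%) were called higher and 34 (4.78%) lower in I/R against sham mice, beside 6.69% and 4.93% of all genes tested, with a median log2 difference of 0.09 beside 0.00 over all genes. In SBP against I/R mice 0 of the 711 were called (24 at an unadjusted p under 0.05, limma), and in SBP against sham mice 19 (2.67%) were called higher and 18 (2.53%) lower, beside 3.77% and 2.26% of all genes. Of the 32, 16 had no sham mouse at the level the filter on low values asks for, so that, like Gm6093, they could hardly have been tested without differing from sham, and of all 871 genes called higher this held for 259. Among them were Gm13832 (0, 17.4 and 7.16 CPM for sham, I/R and SBP mice), Gm20560 (1.30, 29.8 and 33.1 CPM) and D030068K23Rik (0.51, 11.1 and 13.4 CPM), whose values are a description. Gm12840, which reached that level in every mouse, was called higher (log2 3.47, SE 0.79, adjusted p = 0.0258, limma). It measured 68.2, 9.16 and 17.97 CPM in sham mice, 123.8, 621.5 and 230.8 CPM in I/R mice and 250.8, 86.8 and 103.6 CPM in SBP mice, so that sham mouse 1 and I/R mouse 2 stood far above the others of their groups, while the sham and I/R ranges did not overlap. Of 40 lncRNAs with established names, 22 were tested. Dnm3os, the host transcript of a fibrosis-related microRNA cluster, was called higher in I/R mice (116, 317 and 193 CPM, log2 1.41, SE 0.19, adjusted p = 0.000672), and Carmn, a smooth muscle lncRNA, was called lower (36.2, 19.3 and 27.0 CPM, log2 -0.85, SE 0.23, adjusted p = 0.0358). The summed smooth muscle and pericyte markers given above were lower in the same I/R fibroblast libraries, and their part in the Carmn value was not tested.

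A list of 35 fibroblast activation genes gives the scale of the response in which the pair was measured. In I/R against sham mice 19 (54.3%) were called higher and 0 lower, beside 6.69% and 4.93% of all genes, with a median log2 difference of 2.41, and 25 had an unadjusted p under 0.05. In SBP against I/R mice none was called, with a median of -0.11. In SBP against sham mice 19 were called higher, beside 3.77% of all genes, and 0 lower, with a median of 2.30. The list was drawn up with earlier results of these data known. Of the 19, 5 (Spp1, Cthrc1, Il6, Has1 and Ptx3) passed the filter on low values with no sham mouse at its level. This leaves 14 called of 30, beside 4.89% of all genes that had a sham mouse at that level. As a description, osteopontin Spp1 was at 0 in sham (158 ± 172 CPM in I/R), Cthrc1 at 0.254 (86.1 ± 50.5 CPM in I/R) and the cytokine Il6 at 0 (48.9 ± 44.9 CPM in I/R). Among the 14, the largest called differences were those of Tnc, Adam12 and the metalloprotease inhibitor Timp1 (120 CPM against 3.71 in sham). Spp1 is also a gene of macrophages, and the part of the myeloid transcripts given above in its value was not tested.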

How the data were processed

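Nuclei of 9 mouse hearts (3 sham, 3 I/R, 3 SBP, replicate numbers from the sample titles) were sequenced with 10x sNuc-seq. As the study's methods describe it, the authors trimmed reads, counted UMIs with CellRanger on mm10, down-sampled libraries, kept nuclei with over 200 genes and under 10% mitochondrial UMIs and normalized with Seurat. They also corrected batch effects between samples with fastMNN. The submitters' processing notes name Cell Ranger 4.0, STAR, Seurat 3.2.0 and GRCm38. The tables hold fewer nuclei than the study states, for a reason not given in the sources used here. The deposited values are natural log values, ln(1 + 10000 × UMIs / total UMIs of the nucleus). UMI numbers were recovered from them, and at least 99.99936% of values lay within 0.1 UMI of a whole number in every library. Counting intervals and floors cover counting error only.

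Nuclei were clustered with Scanpy 1.11.5 (2000 variable genes, 30 components, 20 neighbours, resolution 0.5) and named from marker genes, so that a name means nuclei resembling that type. Batch effects between libraries were not corrected here, and their part in clusters drawn largely from 1 group or mouse was not tested. Fibroblasts were clustered again (20 components, resolution 0.5). Both lncRNAs and A330043C09Rik were kept out of clustering. Resolution 0.5 was chosen after a lower one merged states, 186 nuclei led by smooth muscle genes were moved to that type, and 212 led by cardiomyocyte genes were set as unnamed, after the data were seen. Scrublet marked 85 nuclei (0.173%), under the 0.5% at which a caller is taken to have worked. These were removed.

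UMIs were summed per mouse and type, scaled by TMM and fitted as log2(CPM + 1), which understates changes of low genes, with limma 3.58.1 (trend, robust) over all 9 mice. Genes entered with 15 UMIs in all and, in 3 mice, a level worth 10 UMIs in the median library. Genes were called at an adjusted p (Benjamini-Hochberg) up to 0.05 with a log2 difference beyond 0.25 either way. The fit was tested on simulated data. Permutation tests were exact and two-sided. Deviations from group means of same-numbered mice correlated in fibroblasts at 0.12 to 0.13 for the 3 sham and SBP pairs. They correlated at -0.18 to 0.17 for sham and I/R and at -0.25 to 0.29 for I/R and SBP. The main fit and the permutation tests did not pair mice. The design had no block, and the block was an alternative. Nothing in the labels describes how animals were assigned to libraries beyond the replicate numbers, so p-values measure the spread between these samples.

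The lncRNAs and all gene lists were chosen with earlier results of these data known. Genes named were the lncRNAs, overlapping genes and the nearest 2 measured genes on each side, the 10 most and 5 least correlated genes (detected in at least 5% of nuclei), the 5 most alike across types, up to 6 called members of each list with the largest change, and Tnc, Postn, Pi16 and Spp1. Annotation was GENCODE mouse release 21 (GRCm38), which matched 23084 of 23747 symbols.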

Additional observations from a re-analysis of the deposited data

How the results depend on the processing

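Of 328 recomputed values, 300 kept their direction and side of the threshold or moved by less than the spread between mice, 28 moved further and 0 reversed. Gm6093 in SBP against I/R fibroblasts ranged from -1.34 to -0.68 (log2, adjusted p 0.555 to 1.00) and 2600014E21Rik from -0.48 to -0.23 (adjusted p 0.744 to 1.00), and 0 genes were called in that comparison under every alternative run. In cardiomyocytes the fit of SBP against sham on only the 6 mice compared gave no value, since the gene did not pass the filter.

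With a pseudocount of 5, the I/R against sham difference of 2600014E21Rik was 3.93 in fibroblasts, 1.06 in endothelial cells and 0.51 in cardiomyocytes, and with 0.5 it was 1.83 in cardiomyocytes. With 1 mouse left out it ranged from 1.09 to 1.54 in cardiomyocytes and from 1.19 to 2.03 in endothelial cells, the lowest without sham mouse 3. The lower bound of the Gm6093 fold in I/R against sham was 131 with cell types from marker scores, and 147 to 261 with 1 mouse left out, the lower values without a sham mouse, where 3 UMIs stand over fewer sham UMIs. That for SBP against sham was 72.8 and 74.0 to 142 in the same settings. Genes called in I/R against sham numbered 1513, 1001 with only the 6 mice compared, and 825 to 1712 with 1 mouse left out (825 without sham mouse 3, 858 without I/R mouse 2). In SBP against sham they numbered 785, 1057 with only the 6 mice compared, so that the order of the comparisons by count turned, and 370 to 972 with 1 mouse left out (493 without sham mouse 1, 374 without sham mouse 3, 474 without SBP mouse 1, 370 without SBP mouse 2). The cause was not tested. Without thinning, the shares of fibroblast nuclei with a UMI in I/R and SBP mice were 5.23% and 2.84% for Gm6093 and 23.7% and 15.6% for 2600014E21Rik. With nuclei holding a Tnc UMI in place of the activated cluster, the shares of UMIs were 73.2% and 66.9% for Gm6093 and 21.3% and 22.1% for 2600014E21Rik. Of the 10 genes most alike to Gm6093, 6 stayed among the 10 highest with Spearman correlations, 5 within activated nuclei alone, and 8 to 9 with 1 mouse left out. For 2600014E21Rik, 2 stayed within activated nuclei and 7 to 9 with 1 mouse left out.

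The pairing of mice by replicate number is described with the processing. With the replicate number as a block, 1424 genes were called in I/R against sham, 740 in SBP against sham and 0 in SBP against I/R, and Gm6093 differed by -1.05 in the latter (adjusted p = 0.999, limma). The block changed no call on either lncRNA. The analyses without the richest nuclei, by state and within activated nuclei were added after the data had been seen. The limit throughout was 3 mice per group and, for Gm6093, 35 to 104 positive fibroblast nuclei per injured mouse.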

Other observations

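A small group of smooth muscle and pericyte nuclei, too few for a comparison, also held 2600014E21Rik. I/R mice 1, 2 and 3 had 5, 6 and 16 UMIs in 10, 3 and 29 such nuclei, SBP mice had 1, 22 and 44 UMIs in 21, 17 and 18 nuclei, and sham mice had 1, 0 and 5 UMIs in 23, 24 and 41 nuclei. In the SBP mouse with 44 UMIs these lay in 5 nuclei. No UMI of Gm6093 was found in any of these nuclei. All of these nuclei had been moved from the fibroblast cluster by their marker genes, and the part of fibroblast RNA in the values was not tested.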
